A study of Mus musculus with 2 samples.

Results

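The lysosomal transcripts described here are 40 genes of 4T1 cells that encode cathepsins, glycosidases and sulfatases, lipid enzymes, lysosomal membrane proteins and the transcription factors that control them. They were a list of gene symbols, drawn up by the function of the genes but with earlier results of these data known, and all 40 were found among the 21911 genes in the deposited table. The 4T1 line was derived from a mammary carcinoma of the mouse and metastasizes readily. Its RNA was sequenced after 48 h with PBS or with potassium oxalate, in 2 libraries, 1 per condition. The dose of oxalate is 20 µM in the sample label and in the data statement of the study, and 20 mM in the treatment protocol of the labels. Both libraries came from this established line, and the labels name no difference in genotype or other treatment between them. The deposited values are FPKM, fragments scaled to the length of the transcript and to the depth of the library, which allows levels to be compared between genes. Because neither condition was repeated, no difference has a replicate check, and the conditions were not tested against each other. In bulk RNA, fewer cells of a type and less RNA per cell cannot be told apart.

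The lysosome is an acidic compartment in which proteases, glycosidases, sulfatases and lipases break down material from endocytosis and autophagy. Most of its soluble enzymes are made in the endoplasmic reticulum and sorted to lysosomes by mannose 6-phosphate receptors. Heavily glycosylated membrane proteins such as LAMP1 and LAMP2 line the compartment and protect the membrane. TFEB, TFE3 and MITF, members of the MiT/TFE family, bind E-box sequences (CACGTG) in the promoters of many lysosomal genes, and the kinase mTORC1 keeps TFEB in the cytoplasm when nutrients are plentiful. In cancer cells, secreted cathepsins can also cut proteins of the extracellular matrix.

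The depth estimated from the steps between low FPKM values was about 5.67e+07 reads for PBS and 3.65e+07 reads for oxalate, so the oxalate library carries the larger counting error. All 10 epithelial markers were well above the filter in both libraries, among them Krt7 (703.31 FPKM with PBS, 699.04 with oxalate) and Epcam (125.71 and 125.33 FPKM). Of 11 macrophage markers, 6 were listed at 0 in both libraries, including Ptprc, Adgre1, Itgam, C1qa and C1qb. A mean of 1 FPKM was reached by 3: Cd14 (53.6 and 53 FPKM), Cd68 (7.79 and 7.11 FPKM) and Csf1r (4.93 and 5.18 FPKM). The list summed to 66.6 FPKM with PBS and 65.4 FPKM with oxalate, most of it Cd14. Of 6 endothelial markers none reached a mean of 1 FPKM. Col1a1 led the 8 fibroblast markers at 143.48 and 144.61 FPKM, while Thy1 and Lum were listed at 0.

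Lysosomal transcripts were of similar abundance in both libraries. The 40 genes together summed to 2627 FPKM with PBS and 2801 FPKM with oxalate, which is 0.463% and 0.501% of all FPKM in the library. Ctsl, Cd63 and Lamp1 held 52.0% of that sum with PBS and 52.5% with oxalate. The order of the levels was nearly the same in both libraries, and the 6 highest members, Ctsl, Cd63, Lamp1, Ctsz, Psap and Grn, had the same ranks in each. A mean of at least 1 FPKM over the 2 libraries was reached by 38 of the 40 members, and by 10267 of all genes. The other members, Ctsf and Ctss, were at or near 0.

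**Figure D1:**
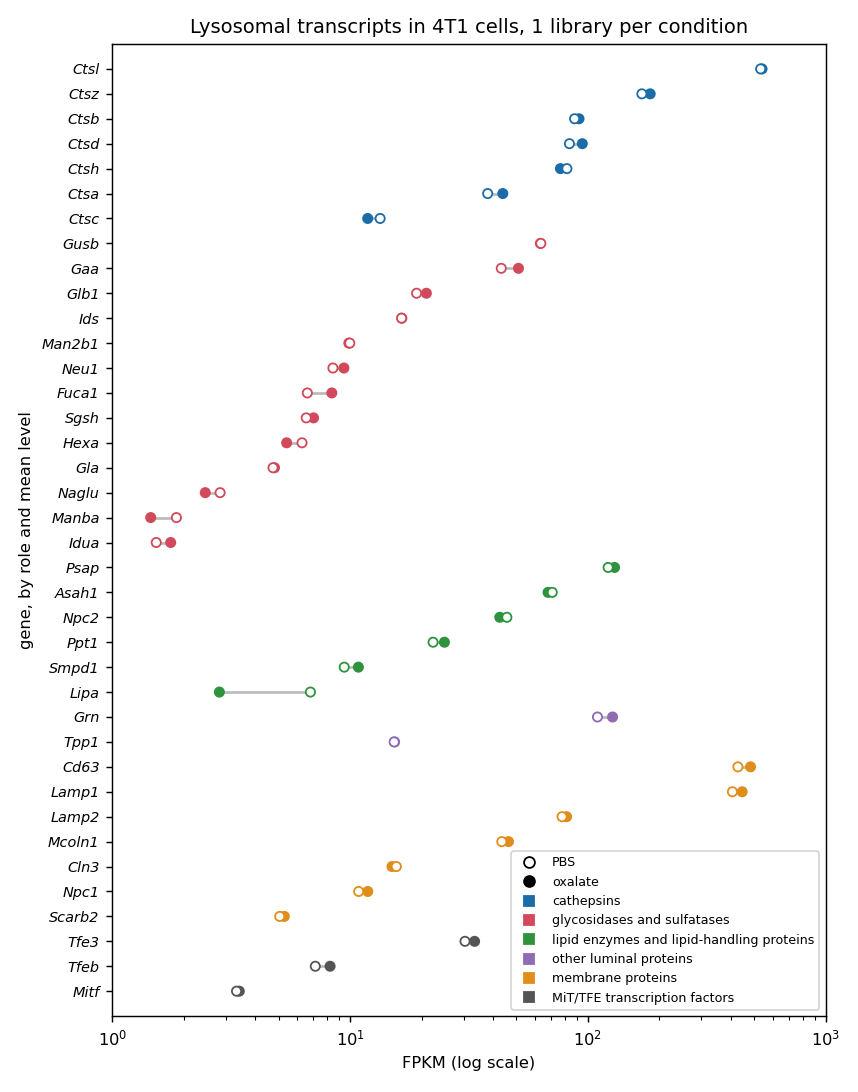
FPKM (log axis) of the 38 lysosomal members with a mean of at least 1 FPKM, with 1 row per gene, grouped by role (color) and ordered by mean level. Open circles are the PBS library and filled circles the oxalate library, with no error bars because each is 1 library; the circles nearly coincide for most genes, and Lipa shows the widest gap, from 6.81 to 2.82 FPKM.

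The difference between libraries was taken as log2((oxalate + 1)/(PBS + 1)), in which the added 1 FPKM shrinks the differences of low genes. Fold thresholds below are on this scale. Of the 38 members, 27 were higher and 11 lower with oxalate, a share of 71.1% higher against 50.6% of all genes past the same filter (and 49.0% of all genes lower). Their median log2 fold change was 0.076, and that of all genes was 0.0031. The sizes were small: 36 of the 38 members differed by less than 1.2-fold. Fuca1 was the only member higher by at least 1.2-fold, and 4.75% of all genes were that much higher. Lipa was the only member lower by at least 1.2-fold, where 5.19% of all genes were, and with a pseudocount of 0.1 or 0.001 Manba passed as well. At 1.5-fold, 0 members were higher and 1, Lipa, was lower, beside 0.935% and 1.05% of all genes. Lipa was also past 2-fold, as were 0.360% of all genes in the same direction, and 0 members were higher by 2-fold (0.292% of all genes). At 1.1-fold, a threshold chosen after the values were seen, 10 members were higher and 5 lower, which is 26.3% and 13.2% of the 38, beside 14.9% and 15.7% of all genes. The list medians and shares are descriptions of these libraries.

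How far counting error reaches was read from the estimated reads of each gene. The 95% counting interval (exact, Clopper-Pearson) of the log2 ratio of the FPKM values, without the added 1, lay above 0 for 18 of the 38 members and below 0 for 7. Among all genes with a known length, 25.0% lay above 0 and 23.8% below. These intervals cover counting error only, and the variation between cultures of the same cells is not in them.

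**Figure D2:**
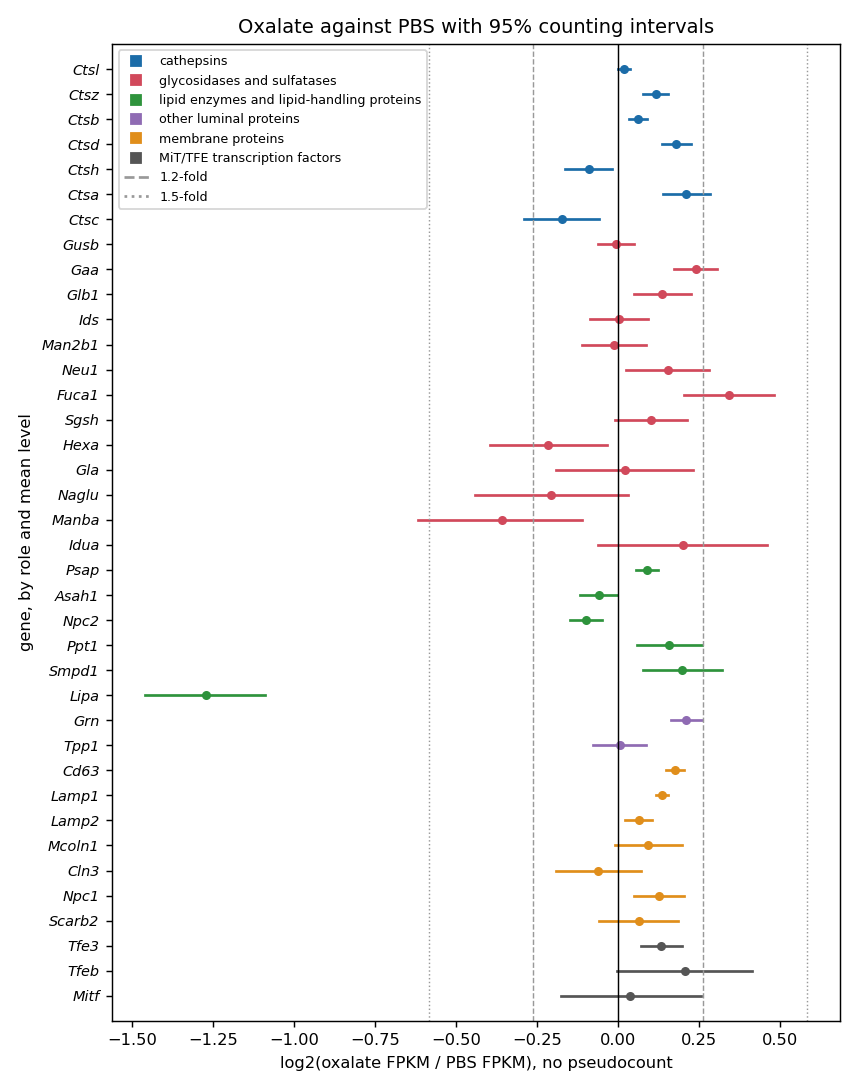
Log2 ratio of oxalate to PBS FPKM (points, no pseudocount) with the 95% counting interval (lines) of the 38 members past the filter, grouped by role (color). Dashed and dotted lines mark 1.2-fold and 1.5-fold; Lipa lies far to the left with an interval from -1.46 to -1.09, and the other intervals reach no lower than -0.62 (Manba) and no higher than 0.48 (Fuca1).

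Lipa, which encodes the lysosomal acid lipase that hydrolyzes cholesteryl esters and triglycerides delivered by lipoproteins, stood apart from the other 37 members. Its level was 6.81 FPKM with PBS and 2.82 FPKM under oxalate, which is -1.03 on the log2(FPKM + 1) scale and a log2 ratio of -1.27 without the added 1. The estimated reads were 1146 and 305, and the counting interval of the ratio ran from -1.46 to -1.09. Among the members, Lipa ranked 29 by level with PBS and 35 with oxalate. The gene lies on chromosome 19 (34492318 to 34527474, minus strand, GENCODE M21 on GRCm38), overlaps no other listed gene, and has 2 coding transcripts of 2965 and 2969 bases among 6 annotated. Genes with 2 coding transcripts differed by at least 1.5-fold more often (1.71% of 2450) than genes with 1 (0.574% of 2613), and those with 3 or more did so most often (2.82% of 5171). The part of read assignment among transcripts in the value of Lipa was not tested. Without Lipa the median of the members was 0.089.

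The other transcripts for lipid handling in the lysosome differed little. Psap encodes prosaposin, the precursor of the saposins that present sphingolipids to their hydrolases, and had 121.75 FPKM with PBS and 129.56 FPKM with oxalate. Asah1, acid ceramidase, was at 70.87 and 68.03 FPKM, and Smpd1, acid sphingomyelinase, at 9.45 and 10.84 FPKM. These transcripts of sphingolipid breakdown lay on either side of 0, with log2 fold changes of 0.089, -0.058 and 0.18. Npc2 and Npc1, the luminal and the membrane protein that pass cholesterol out of the lysosome, also differed in opposite directions, at 45.66 and 42.62 FPKM for Npc2 and 10.87 and 11.87 FPKM for Npc1. Ppt1, a thioesterase that removes fatty acids from proteins, had 22.34 FPKM with PBS and 24.94 FPKM with oxalate. Of the 6 genes in this role group, Lipa included, 3 were higher and 3 lower, with a median log2 fold change of 0.015. That median was 0.089 over the 5 with a mean of at least 5 FPKM, which leaves out Lipa.

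Cathepsins covered the widest range of levels. Ctsl, a cysteine protease that is also secreted by many tumor cells, was the highest of all 40 members, with 533.29 FPKM in the PBS library and 540.52 FPKM in the oxalate library, and its log2 fold change was 0.019. It ranked above 98.9% of all genes past the filter by mean level. Ctsz, a carboxypeptidase, followed at 168.76 and 182.95 FPKM. Ctsb, a cysteine protease, was at 87.99 and 91.84 FPKM and Ctsd, the main aspartic protease of lysosomes, at 83.7 and 94.79 FPKM. Ctsd overlaps Gm49369 on the same strand, which had 1.6 and 0.46 FPKM. Of the 7 cathepsin genes past the filter, 5 were higher and 2 lower, with a median log2 fold change of 0.061, and Ctsl, Ctsz, Ctsb and Ctsd were among the higher. With no filter, which adds Ctsf and Ctss, the median was 0.019, and with the length trend taken away it was 0.027. Ctsh, an aminopeptidase, had 81.67 FPKM with PBS and 76.7 FPKM with oxalate. Ctsc, which activates the serine proteases of granulocytes, had 13.38 and 11.86 FPKM, and the intervals of Ctsh and Ctsc lay below 0. Ctsa, the protective protein of a complex with β-galactosidase and neuraminidase, had 37.92 and 43.89 FPKM, the largest log2 fold change of the group at 0.21.

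Ctss and Ctsf were at or below the limit that the depth allows to be seen. Ctss, typical of antigen-presenting cells, was listed at 0 in both libraries, which at the estimated depth allows up to 0.039 FPKM with PBS and 0.061 FPKM with oxalate (3 reads each). Ctsf was at 0.02 FPKM with PBS, an estimate of about 1 read, and was listed at 0 with oxalate. A difference in these genes was not detectable at this depth.

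Glycosidases and sulfatases had a median level of 7.50 FPKM over both libraries, beside 89.2 FPKM for the 7 cathepsins. Gusb, β-glucuronidase, was the highest of them, with 63.44 FPKM in the PBS library and 63.17 FPKM in the oxalate library. Gaa, acid α-glucosidase, which degrades glycogen in lysosomes, was at 43.24 and 51.09 FPKM, a log2 fold change of 0.24. Fuca1, which removes fucose from glycoproteins, had 6.61 FPKM with PBS and 8.38 FPKM with oxalate. Its log2 fold change of 0.30 was the highest among the 38 members past the filter, and its estimated reads were 947 and 772. Its log2 ratio without the added 1 was 0.34, with an interval from 0.20 to 0.48. Fuca1 lies on chromosome 4 (135920735 to 135940311, plus strand), has 1 coding transcript and overlaps no listed gene.

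The transcripts for the 3 proteins of the multienzyme complex of β-galactosidase (Glb1), neuraminidase (Neu1) and Ctsa were all higher with oxalate. Glb1 was at 19.04 and 20.94 FPKM and Neu1 at 8.47 and 9.42 FPKM, log2 fold changes of 0.13 and 0.14 beside the 0.21 of Ctsa. Of all genes past the filter 50.6% were higher. The interval of each of the 3 lay above 0, as it did for 47.4% of the members and 25.0% of all genes. It covers counting error only. Glb1 overlaps Tmppe on the same strand, so a part of its reads could belong to that gene, which had 4.09 and 4.05 FPKM.

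The enzymes that take apart glycosaminoglycans had no shared direction. Ids, iduronate sulfatase, was at 16.47 and 16.51 FPKM, and Sgsh, heparan N-sulfatase, at 6.54 and 7.02 FPKM. Idua, α-iduronidase, had 1.53 FPKM with PBS and 1.76 FPKM with oxalate, while Naglu, N-acetyl-α-glucosaminidase, had 2.84 and 2.46 FPKM. The intervals of these 4 genes all included 0, that of Idua running from -0.063 to 0.46.

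Hexa, the α subunit of β-hexosaminidase, had 6.28 FPKM with PBS and 5.41 FPKM with oxalate. Manba, β-mannosidase, was among the lowest members and had the lowest log2 fold change after Lipa, at 1.86 and 1.45 FPKM (-0.22). It rests on 388 and 194 estimated reads, and its log2 ratio without the added 1 was -0.36, with an interval from -0.62 to -0.11. Man2b1, lysosomal α-mannosidase, was at 9.97 and 9.88 FPKM, and Gla, α-galactosidase, at 4.74 and 4.81 FPKM, so both were within 0.02 of no difference on the log2 scale. Over the 13 glycosidases and sulfatases, 8 were higher and 5 lower, with a median log2 fold change of 0.017, and over the 9 with a mean of at least 5 FPKM the median was 0.089.

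Of the 7 lysosomal membrane proteins, 6 were higher with oxalate, beside 50.6% of all genes past the filter. Their median log2 fold change was 0.091. Cd63, a tetraspanin of late endosomes and exosomes, had 427.83 FPKM with PBS and 483.56 FPKM with oxalate, and Lamp1 had 405.7 and 445.85 FPKM. These are the most abundant transcripts of the group, and their log2 fold changes were 0.18 and 0.14. Lamp2, which also serves chaperone-mediated autophagy, was at 77.93 and 81.44 FPKM. Mcoln1, a calcium channel of the lysosomal membrane, was at 43.47 and 46.38 FPKM, and Scarb2, the receptor that carries β-glucocerebrosidase to lysosomes, at 5.06 and 5.29 FPKM. Cln3, a membrane protein lost in juvenile Batten disease, was the exception at 15.65 and 15.01 FPKM, with an interval from -0.19 to 0.071. The intervals of Mcoln1 (-0.010 to 0.20) and Scarb2 (-0.059 to 0.19) also included 0.

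Among the remaining luminal proteins, Grn, which encodes progranulin, a secreted glycoprotein that is cut to granulins in lysosomes, had 109.8 FPKM with PBS and 127.09 FPKM with oxalate (0.21 as log2 fold change). Tpp1, a tripeptidyl peptidase, had 15.33 and 15.39 FPKM.

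All 3 MiT/TFE transcription factors were expressed. Tfe3 was the highest, with 30.44 FPKM in the PBS library and 33.4 FPKM in the oxalate library. Tfeb had 7.14 and 8.24 FPKM and Mitf 3.33 and 3.42 FPKM. Each was higher with oxalate, with log2 fold changes of 0.13, 0.18 and 0.030, but only the interval of Tfe3 lay above 0, and those of Tfeb (-0.0018 to 0.41) and Mitf (-0.18 to 0.26) included it. The RNA level says nothing of where in the cell TFEB resides. Tfeb has 12 coding transcripts from 287 to 2342 bases, and its reads are therefore a rough estimate.

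**Figure D3:**
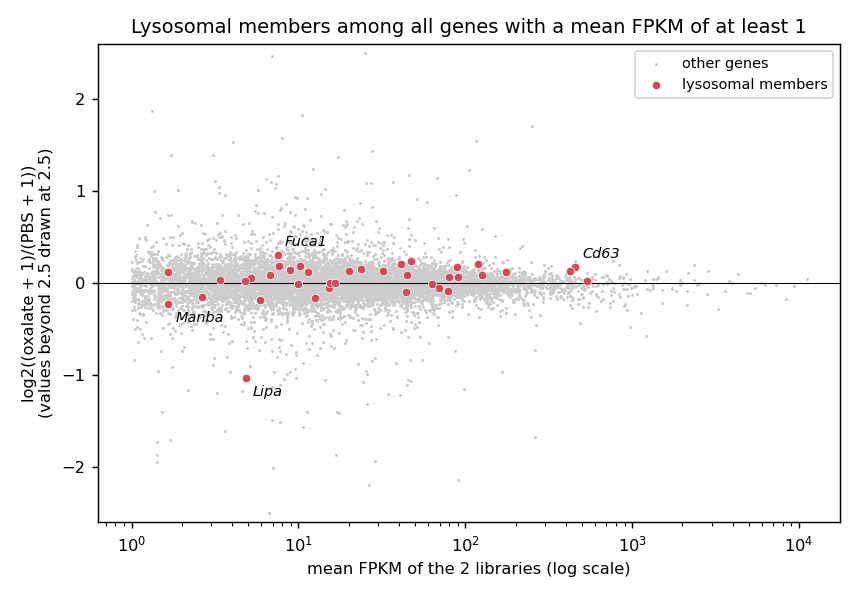
Log2((oxalate + 1)/(PBS + 1)) against mean FPKM (log axis) for the 10267 genes with a mean of at least 1 FPKM, each point 1 gene, with the 38 lysosomal members in red and values beyond 2.5 drawn at 2.5. The members lie within the cloud of other genes, with Lipa in its lower tail at -1.03, and the members above 100 FPKM all sit above 0.

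By level, all 6 members with a mean of at least 100 FPKM (Ctsl, Cd63, Lamp1, Ctsz, Psap and Grn) were higher with oxalate. Of all genes past the filter 50.6% were higher, and the share at that level was not counted. The 6 members had a median log2 fold change of 0.13. The 967 genes at that level had a median of -0.013, an upper quartile of 0.046 and a 95th percentile of 0.14. Ctsl, at 0.019, lay below that quartile, and only Cd63 and Grn lay above the 95th percentile. Of the 12 members between 20 and 100 FPKM 8 were higher, and of the 14 between 5 and 20 FPKM 10 were higher. Below 5 FPKM 3 of 6 were higher, with a median of -0.066. The members' transcripts had a median GC content of 52.7%, against 51.0% for all genes, and the median log2 fold change of all genes went from -0.066 in the lowest of 10 GC bins to 0.028 in the highest. With this trend taken away, an alternative chosen after the values were seen, the median of the members was 0.062, and with a trend on transcript length taken away it was 0.064.

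Promoter sequences were read because MiT/TFE factors bind the E-box CACGTG, in lysosomal promoters often within the longer core TCACGTGA. Both words read the same on either strand, and the core contains the E-box. RefSeq windows from 250 bases before to 50 bases after an annotated start (GRCm38.p6) were available for 36 of the 40 members, in 44 windows. Asah1, Ctsb, Ctsh and Npc1 were not matched. An E-box was present for 12 of the 36 members (33.3%), and in 8.09% of 27025 genes with a window. The core was present for 5 members (13.9%), and in 1.12% of all genes. Some related lists held E-boxes at similar shares. These were 35.3% of 17 genes of the sorting machinery, 33.3% of 21 genes of mTORC1 and related control and 3 of 10 V0 and accessory genes of the proton pump. The other lists held fewer. The share was 20.0% of 25 other hydrolases, 14.3% of 28 other lysosomal membrane proteins and 12.9% of 31 autophagy genes. It was 10.5% of 19 genes of the damage response, 1 of 9 V1 genes of the pump and 0 of 7 inhibitors of cathepsins. The core was present for 23.5% of the sorting genes and 2 of 10 V0 and accessory genes. It was present for 1 of 9 V1 genes, 10.7% of the other membrane proteins and 10.5% of the damage response. For the other hydrolases it was 8%, for the autophagy genes 3.23%, and for the mTORC1 list and the inhibitors 0. A word in a window is a description of the sequence and does not show that a factor binds there.

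The stretches in which no exon is annotated are printed for 3 members with an E-box and for Lipa, which has none in its window and had the largest difference. Each is written 5′ to 3′ on the strand of the gene, with every E-box in capitals. Lamp1 (chr8:13159081-13159160, plus strand, 80 bases up to the start) holds 4 E-boxes, Glb1 (chr9:114400988-114401047, plus strand) holds 1, Gaa (chr11:119267803-119267862, plus strand) holds 1, and Lipa is shown for the 100 bases up to its start (chr19:34527475-34527574, minus strand).
Lamp1: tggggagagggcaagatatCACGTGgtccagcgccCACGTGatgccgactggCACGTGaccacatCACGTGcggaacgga
Glb1: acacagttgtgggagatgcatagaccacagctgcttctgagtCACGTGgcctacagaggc
Gaa: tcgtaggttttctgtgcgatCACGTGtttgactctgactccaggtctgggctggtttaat
Lipa: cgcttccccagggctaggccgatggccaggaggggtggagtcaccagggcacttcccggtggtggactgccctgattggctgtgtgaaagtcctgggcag

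The 5 members with the longer core are shown by 20 bases about a site, since GENCODE M21 places untranslated exons there. Those exons belong to the gene itself, except at Gla, where the exon belongs to Hnrnph2 and the site lies 194 bases before the start of Gla. Capitals again mark the E-box, and in each site it is flanked by t and a. The positions are chr8:3500467-3500486 (plus strand) for Mcoln1, chr7:142387913-142387932 (minus strand) for Ctsd, chr2:164833753-164833772 (plus strand) for Ctsa, chr7:126583345-126583364 (minus strand) for Cln3 and chrX:134601187-134601206 (minus strand) for Gla.
Mcoln1: ccccgctCACGTGaccgcgg
Ctsd: cgcgtctCACGTGacccgtt
Ctsa: caaactgtCACGTGatgcag
Cln3: gtactgtCACGTGaccccca
Gla: tctcggtCACGTGagcaact

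**Figure D4:**
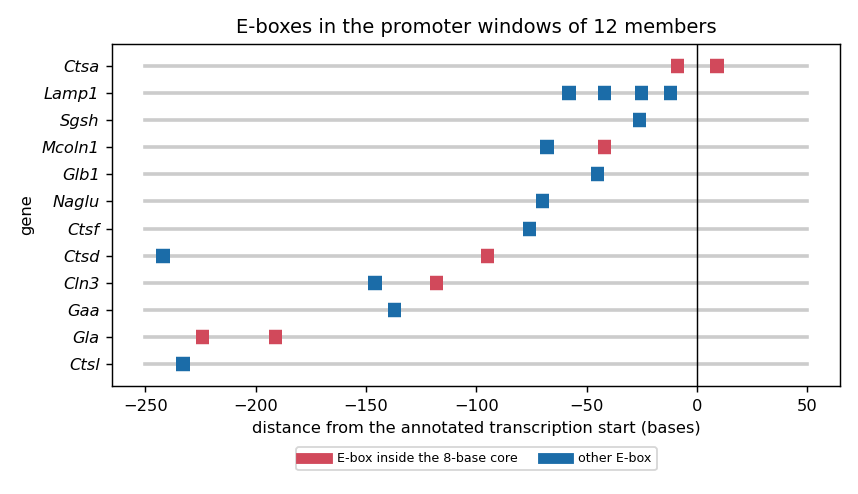
Positions of the E-box CACGTG in the RefSeq promoter windows of the 12 members that hold at least 1, 1 row per gene, on an axis of distance from the annotated start in bases (vertical line at the start). Red marks an E-box inside the 8-base core and blue any other; Lamp1 holds 4 E-boxes within 61 bases of its start.

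By role, E-boxes were present for 4 of 7 cathepsins with a window, 5 of 13 glycosidases and sulfatases and 3 of 6 membrane proteins. They were present for 0 of 5 lipid proteins, 0 of 2 other luminal proteins and 0 of 3 transcription factors, beside 8.09% of all genes. Groups this small do not show whether the roles differ. The differences with oxalate overlapped widely between the members with and without an E-box. The 11 with an E-box past the filter had log2 fold changes from -0.15 (Naglu) to 0.24 (Gaa), with a median of 0.091, and 9 of them were higher. The 23 without had values from -1.03 (Lipa) to 0.30 (Fuca1), with a median of 0.063, and 16 were higher. Among the 5 with the core, Ctsa, Ctsd, Mcoln1 and Gla were higher and Cln3 lower.

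Other lysosomal genes had medians slightly below that of the members. Of 38 other hydrolases, 37 were found in the table and 32 passed the filter, of which 19 were higher, 12 lower and 1 equal, and the median log2 fold change was 0.051. The highest were Lgmn, the protease legumain, at 65.83 and 69.64 FPKM and Pcyox1, an oxidase of prenylcysteine, at 48.56 and 47.34 FPKM. Of 34 other lysosomal membrane proteins, 24 passed, 17 of them higher, with a median of 0.055, led by Laptm4a (114.55 and 109.54 FPKM) and Sidt2 (70.26 and 79.88 FPKM). In neither list did a gene differ by 1.5-fold with 1 FPKM added. Without it, Ggh, a γ-glutamyl hydrolase, did, with 1.54 FPKM in the PBS library and 0.89 FPKM in the oxalate library (interval -1.23 to -0.37).

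The genes of the sorting machinery lay on either side of 0. Of 22 past the filter, 12 were higher and 10 lower (median 0.0038). Gnptab, which makes the mannose 6-phosphate tag, was at 61.58 and 67.25 FPKM, and its receptors Igf2r and M6pr at 58.77 and 63.73 FPKM and at 52.08 and 51.14 FPKM. The highest of the list were Ap1s1 (160.22 and 148.52 FPKM) and Gga1 (90.43 and 90.66 FPKM), an adaptor subunit and a clathrin adaptor of the Golgi.

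The proton pump of the lysosome held the largest difference among the related lists. Atp6v0c, the subunit of the membrane ring through which protons pass, had 59.03 FPKM with PBS and 173.99 FPKM with oxalate, which is 1.54 on the log2(FPKM + 1) scale. The counting interval of the log2 ratio without the added 1 ran from 1.49 to 1.63. The gene has 3 coding transcripts. The other members of the membrane sector did not share this size: Atp6v0b had 104.54 and 109.58 FPKM, and Atp6ap1, an accessory protein, had 107.38 and 125.09 FPKM. Of the 10 V0 and accessory genes past the filter 9 were higher (median 0.11). Atp6v0a1, the V0 gene that was lower, had 20.73 and 15.82 FPKM (-0.37). In the cytosolic V1 sector 7 of 9 genes were lower (median -0.043). Of all genes past the filter 50.6% were higher and 49.0% lower. Within V1, Atp6v1e1 was at 70.84 and 70.23 FPKM and Atp6v1f at 67.23 and 65.84 FPKM, Atp6v1a, the catalytic subunit, had 60.39 and 44.93 FPKM (-0.42), and the low Atp6v1g2 had 0.92 and 2.86 FPKM (1.01). Atp6v1g2 rests on 44 and 88 estimated reads and overlaps Nfkbil1 on the other strand.

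Of the genes of mTORC1, the Rag GTPases and others that govern where MiT/TFE factors reside, 20 passed the filter. Of these, 13 were higher and 7 lower (median 0.037). Mlst8, a subunit of mTORC1, had 5.72 and 11.17 FPKM, a log2 fold change of 0.86, and has 7 coding transcripts and overlaps Bricd5 on the other strand. Flcn, which acts on the Rag GTPases, had 11.2 and 15.6 FPKM (0.44), and Mtor 17.17 and 21.01 FPKM (0.28). Tbc1d7 had 3.11 and 4.81 FPKM (0.50), and Rheb, with the lowest log2 fold change of the list, had 27.63 and 23.94 FPKM (-0.20). The highest of the list, Lamtor1 and Xpo1, were at 131.06 and 124.45 FPKM and at 66.2 and 57.73 FPKM.

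All 38 autophagy genes passed the filter, 22 higher and 16 lower (median 0.022). Sqstm1, the receptor p62, was at 321.42 and 320.57 FPKM and Rab7, a GTPase of late endosomes, at 173.38 and 177.57 FPKM. Of 20 genes of the response to lysosomal damage past the filter, 7 were higher and 13 lower (median -0.018). Lgals3 encodes galectin-3, a protein used as a marker of damaged lysosomes, and was at 414.24 and 488.64 FPKM (0.24). Its RNA level does not show whether lysosomes were damaged. Lgals9 was past 1.5-fold, at 23.98 and 36.95 FPKM (0.60). Trim16 had 10.28 and 15.43 FPKM (0.54) and overlaps Fbxw10 on the same strand. Lgals1 was the highest at 3944.15 and 3933.91 FPKM. Of the inhibitors of cathepsins, Cstb (204.24 and 201.37 FPKM) and Cst3 (137.25 and 136.04 FPKM), which encode cystatins B and C, were nearly equal, and Serpinb6a had 123.55 and 176 FPKM (0.51). Serpinb6a has 13 coding transcripts and overlaps Nqo2 and Ripk1 on the other strand.

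**Figure D5:**
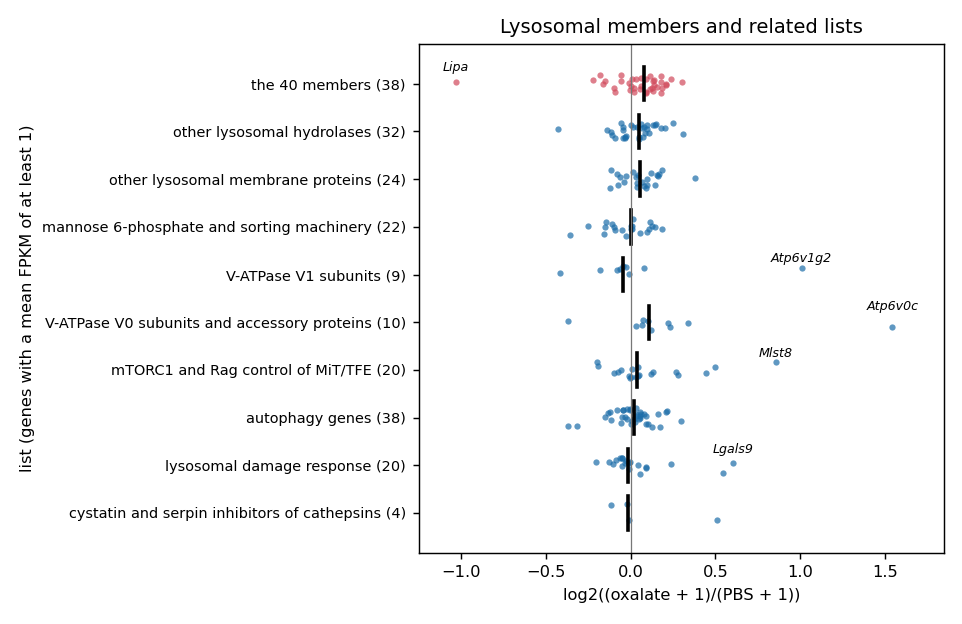
Log2((oxalate + 1)/(PBS + 1)) of the lysosomal members (red) and of 9 related lists (blue), each point 1 gene with a mean of at least 1 FPKM and the number of such genes in brackets, with black bars at the medians and names at genes past 1.5-fold. The medians lie between -0.043 (V1) and 0.11 (V0), and Lipa and Atp6v0c are the points farthest from 0.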

How the data were processed

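Polyadenylated RNA of 4T1 cells was reverse transcribed from random primers, and 2 libraries were read on an Illumina sequencer. The authors deposited FPKM values, rounded to 2 decimals, per Ensembl gene. Bowtie2 2.2.8 and TopHat2 2.1.1 are named in the submitters' processing notes. The quantification tool, genome build and annotation are not given in the sources used here, and neither is strandedness, so overlapping genes on the other strand (11 members) cannot be told apart.

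Symbols, lengths and coordinates were taken from GENCODE M21 (GRCm38; 21848 of 21911 identifiers matched). Reads were estimated from the steps of low FPKM values in genes under 700 bases with 1 transcript, and from mean coding transcript lengths, so they are approximate. The pseudocount was 1 and the filter a mean of at least 1 FPKM. The members and lists were chosen with earlier results of these data known. Named were all members and, in the related lists, the 2 highest genes and those past 1.5-fold; the other genes named there were chosen after their values were seen. The calculations were tested on simulated data. Scripts ran in Python 3.11.15 with scipy 1.17.1, pandas 2.3.3, matplotlib 3.10.9 and numpy 2.4.6.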

Additional observations from a re-analysis of the deposited data

How the results depend on the processing

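No paired analysis was possible because neither treatment was repeated, and no replicate could be left out. The median of the members stayed between 0.062 and 0.097 under the alternatives run (pseudocounts of 0.1 and 0.001, scaling to TPM, rescaling to a median of 0, no filter, a mean of at least 5 FPKM and, chosen after the values were seen, GC and length trends taken away and Lipa left out). Scaling to TPM also put the median of all genes at 0.023. The 1 member lower by 1.5-fold became 0 at a mean of at least 5 FPKM, because Lipa falls below that filter, which also left 1 of the 2 members past 1.2-fold. With pseudocounts of 0.1 and 0.001 that count was 3. At 1.1-fold the members higher and lower became 10 and 5. The median of the cystatin and serpin list became 0.062 from -0.016 with the length trend taken away, and the cause was not tested. Of 129 medians recomputed 7 changed sign or became 0: the lipid group (-0.015, GC trend), the sorting machinery (-0.018 and -0.013, GC and length trends), the damage response (0.0020, TPM) and the inhibitors (0.0042 with TPM, 0 with no filter, and the length trend value above). Of 152 values of single members 4 moved by more than the distance from the middle of their counting interval to its end. Lipa became -1.24 and -1.27 with pseudocounts of 0.1 and 0.001, and Ctsl and Lamp1 became 0.040 and 0.16 with scaling to TPM. Signs turned for 2 (Gusb, 0.015, and Man2b1, 0.0073, with scaling to TPM). Depth limits the low members most, and the widest interval was that of Idua.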
